A study of Mus musculus with 4 samples.

Results

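Interferon response genes are the genes that cells switch on when interferons bind their receptors. A list of 34 such genes was followed across the caecal tissue arrays of this mouse series, and each gene was read from the probe set that carries its symbol alone (the one with the highest mean, where a gene has more than 1). This gave values for 31 of the 34 genes, out of 22180 genes measured in this way. Oas1a and Gbp2 were annotated only on probe sets shared with a neighbouring family member, and Ifi44 had no annotated probe set, so these 3 genes have no value here. The list was split into 3 groups: 18 measured genes induced mainly by type I interferon, 8 measured GTPases induced mainly by interferon gamma, and 5 regulators and antigen-processing genes that respond to interferon gamma or to both.

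The study compared 4 groups of C57Bl/6 mice, aged 21 weeks, with 1 array for each group. The groups were apoE KO mice given prebiotics, apoE KO mice without prebiotics, wild-type (WT) mice given prebiotics and WT mice without them. All 4 groups, controls included, were kept on an n-3 PUFA depleted chow (PUFA stands for polyunsaturated fatty acids), and the prebiotic (Orafti P95) was given at 250 mg per mouse per day for the last 15 days. Each array carries RNA pooled from 6 mice chosen for RNA quality, so the spread between mice is not visible. For the 2 WT arrays the title and the description name opposite diets; they are called here by their titles, and the KO minus WT differences are the same either way. In a piece of whole caecum, fewer cells of a type and less RNA per cell cannot be told apart.

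Type I interferons signal through the receptor chains Ifnar1 and Ifnar2 and the kinases Jak1 and Tyk2 to a complex that holds Stat2 and Irf9 and binds a DNA motif called the interferon-stimulated response element. Interferon gamma signals through Ifngr1, Ifngr2, Jak1 and Jak2, its early targets carry a DNA motif called the gamma-activated site, and it also acts through the factor Irf1. In the gut, lambda interferons act mainly on the epithelium, and interferon gamma comes mainly from T and NK cells. The products of the target genes bind or degrade viral RNA, attack vacuoles that hold microbes, or prepare peptides for MHC class I.

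The promoters were searched for the motifs named above. A few type I genes and GTPases that hold the response element are printed to show how it looks, and they do not stand for every member. RefSeq promoter windows (build GRCm38.p6, 250 bases before to 50 after each start) were found for 26 of the 34 listed genes. The response element, searched on both strands as GAAA, any 2 bases and GAAA again, was present for 15 of the 26, against 3.99% of the 27025 genes in the promoter table. It was found for 9 of 15 type I genes, 6 of 6 GTPases and 0 of 5 regulators and antigen-processing genes. The gamma-activated site, searched as TTCNNNGAA (the same on both strands), was present for 9 of the 26, against 9.55% of all genes. It was found for 3 of 15 type I genes, 3 of 6 GTPases and 3 of 5 regulators and antigen-processing genes. The stretches below lie upstream of the start and are written 5′ to 3′ on the strand of the gene. Capitals mark every base of a match to either motif, and some matches overlap:
Ifit1: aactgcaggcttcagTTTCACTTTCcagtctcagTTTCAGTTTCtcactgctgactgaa
Ifit3: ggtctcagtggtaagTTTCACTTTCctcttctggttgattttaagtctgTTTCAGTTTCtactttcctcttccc
Isg15: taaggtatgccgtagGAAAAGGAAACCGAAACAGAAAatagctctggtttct
Irgm1: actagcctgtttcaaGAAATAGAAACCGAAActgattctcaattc
Irgm2: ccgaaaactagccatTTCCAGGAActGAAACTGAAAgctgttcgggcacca
Igtp: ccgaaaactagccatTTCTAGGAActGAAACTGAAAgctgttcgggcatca

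The Ifit1 stretch is chr19:34640770-34640828 (plus strand) and the Ifit3 stretch chr19:34583358-34583431 (plus). The Isg15 stretch is chr4:156200860-156200911 (minus) and the Irgm1 stretch chr11:48871421-48871465 (minus). The neighbours Irgm2 (chr11:58214887-58214937, plus) and Igtp (chr11:58199496-58199546, plus) are paralogs, and their stretches were identical at 49 of 51 bases, with the substitutions C19T and C49T (Irgm2 base, position from the 5′ end of the stretch, Igtp base). Both place a gamma-activated site just before a response element. Psmb9 and Tap1 are read in opposite directions from starts 226 bases apart, and their windows share 275 bases on chromosome 17. A match in a window is a description of the letters and does not show that a factor binds there.

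The first result is that few of these genes stood far above the middle of the range in this tissue. A filter was set on each array at the median over probe sets that carry a single symbol, between 2.99 and 3.01 on the log2 scale. It is not a measured background, and no detection calls were used here, so whether the genes with the lowest values were detected cannot be told from these data. Of the 31 measured genes, 16 were at or above this filter on all 4 arrays and 5 were below it on all 4: Ifit2, Usp18, Mx1, Mx2 and Gbp6. The other 10 crossed it on some arrays. Of all 22180 genes, 9989 were at or above the filter on all 4 arrays and 9097 were below it on all 4. Members thus lay above this filter more often than genes at large. At the 75th percentile of the same probe sets, 4 of the 31 reached the bar on at least 1 array, beside 6154 of all 22180 genes. Ifit1, whose product binds foreign RNA ends, had 3.13 and 2.76 log2 units in KO caecum with and without prebiotics, against 3.16 and 2.99 in WT caecum titled with and without them. Isg15, a ubiquitin-like modifier, had 2.996 and 2.82 in KO and 2.72 and 3.003 in WT. RMA compresses differences at such values, so a small difference there does not exclude a larger one in the tissue.

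**Figure D1:**
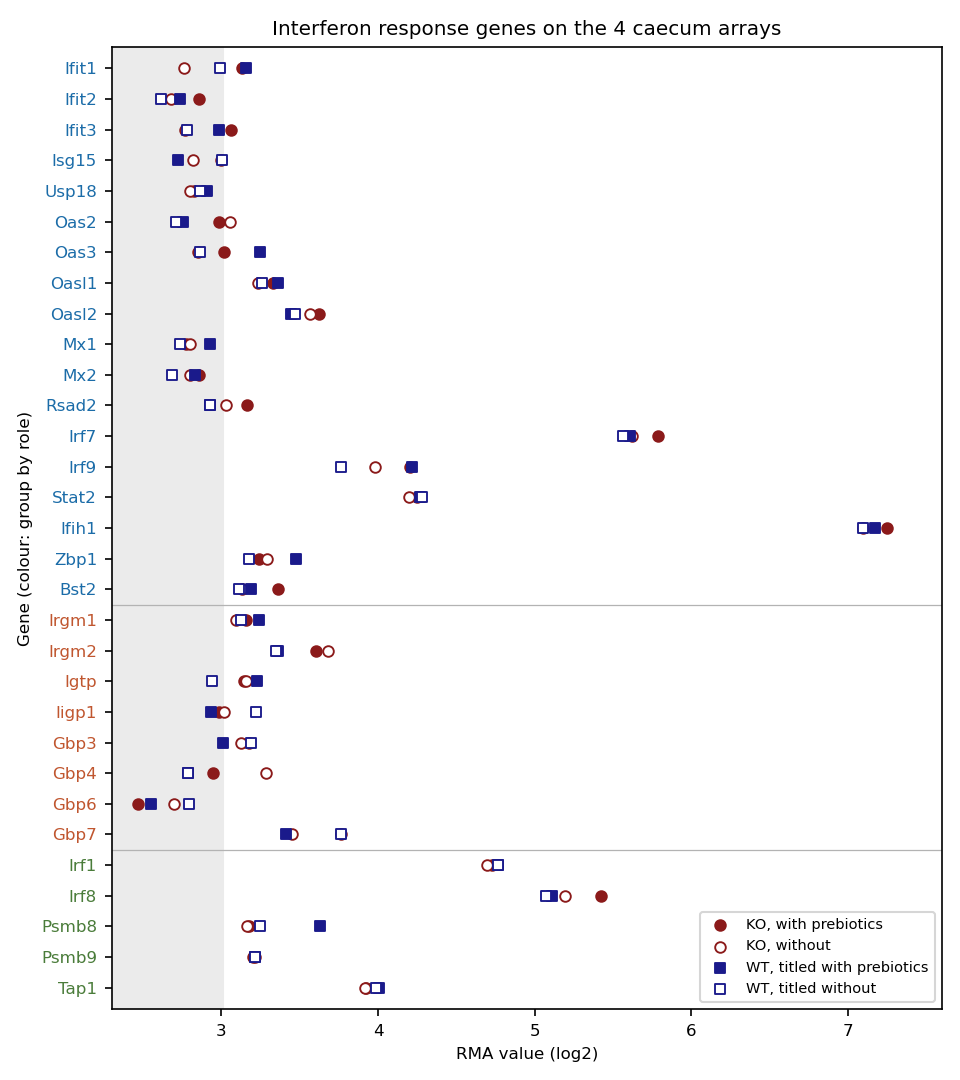
RMA values (x axis, log2) of the 31 measured interferon response genes (y axis, coloured by group) on the KO arrays with and without prebiotics and the WT arrays titled with and without them, 1 pool of 6 mice per array; the grey area lies below the filter. Most genes sit between 2.5 and 4 on all arrays, and Ifih1, Irf7, Irf8 and Irf1 stand clear of the filter on all 4 arrays.

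Other facts of the arrays bear on these values. Apoe averaged 2.979 in KO and 3.999 in WT, which is -1.02 on the log2 scale (limma adjusted p = 0.782, SE 0.16), and neither KO array reached either WT array, as the genotype labels have it. Apoe was called with diet by title as a block, but not with that block and the WT pair exchanged. The caecal epithelium was plainly present: all 7 epithelial markers, among them Epcam and Vil1, were above the filter on all 4 arrays. Of 12 measured T and NK cell markers, 6 were below the filter on all 4 arrays and 2 were above it on all 4. The median of all probe sets was 2.93, 2.92, 2.93 and 2.93 on the KO arrays with and without prebiotics and the WT arrays titled with and without them.

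KO caecum was compared with WT caecum to ask whether loss of Apoe moved the interferon programme. None of the 26 members that passed the filter on at least 1 array was called by limma (0 of 26 at an adjusted p under 0.05), and over all 13083 genes tested the share called was 0%. In limma at an unadjusted p under 0.05 there was 1 member, Oas2, against 3.29% of all genes tested. The differences of the 31 genes ran between -0.27 and 0.33 on the log2 scale, with a median of 0.03, beside a median of 0.01 over all genes tested. Their median size without sign was 0.08, against 0.10 over all genes tested. No 95% interval of the 26 tested members reached a 2-fold difference: the lowest bound was -0.64 (Psmb8) and the highest 0.68 (Gbp4).

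**Figure D2:**
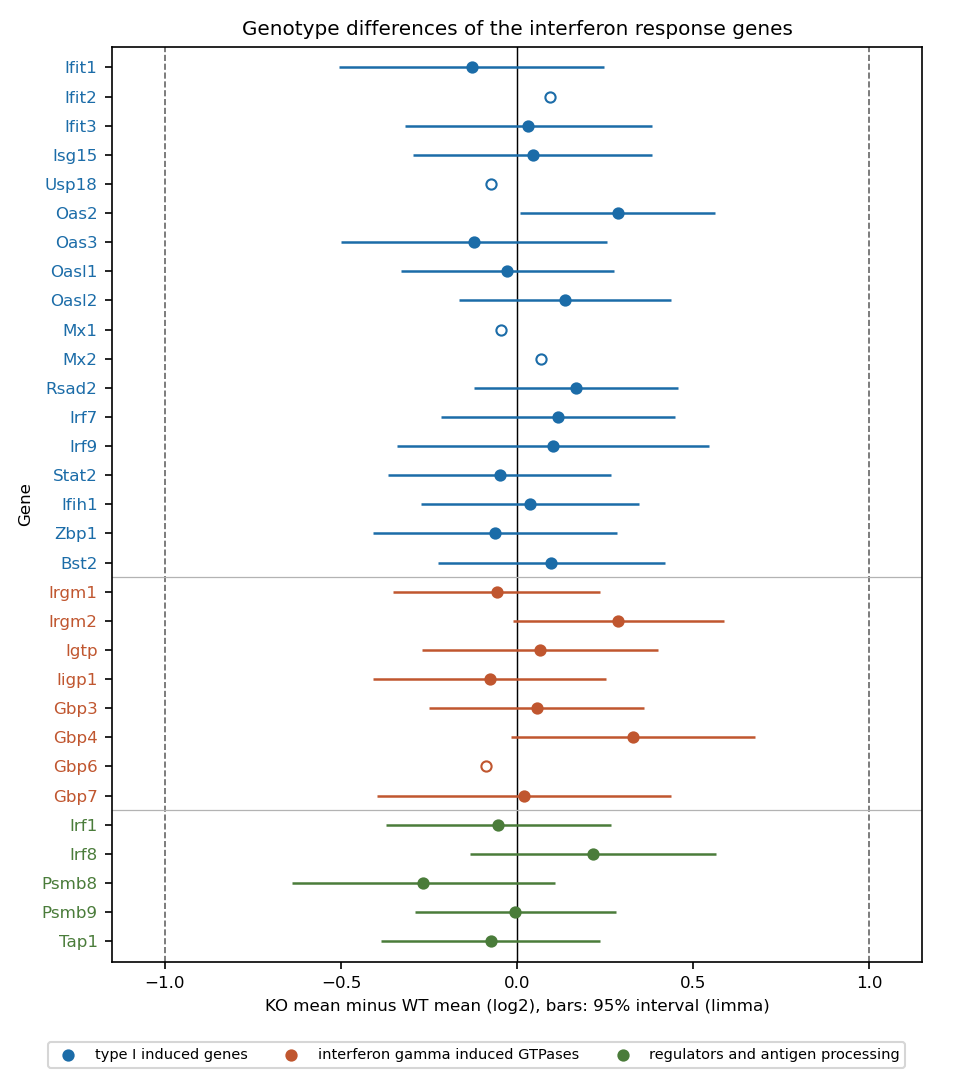
Genotype difference of each interferon response gene (x axis, KO mean minus WT mean in log2 units; dashed lines mark 2-fold) with its 95% interval from limma; filled points are the 26 tested genes and open points the 5 below the filter on every array. Every interval lies inside the dashed lines, between -0.64 and 0.68, and all but that of Oas2 include 0.

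Both KO arrays lay above both WT arrays for 7 of the 31 members and below for 5, and the arrays overlapped for 19. Over all 22180 genes, filtered or not, the counts were 3322 above and 3545 below. Among the 26 tested members the counts were 7 above and 4 below, beside 16.2% and 14% of all genes tested. Of those above, Oas2, Rsad2 and Gbp4 passed the filter on KO arrays only, so the counts among tested members depend on the filter. The separated members do not follow 1 role. Above were Oas2, Oasl2, Rsad2 and Irf7 among the type I genes, Irgm2 and Gbp4 among the GTPases, and Irf8. Below were Usp18 and Stat2 among the type I genes, and Irf1, Psmb8 and Tap1.

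Among type I genes the largest genotype differences were those of Oas2, Rsad2, Oasl2 and Ifit1. Oas2, an oligoadenylate synthetase that activates ribonuclease L, had 2.98 and 3.05 in KO with and without prebiotics, against 2.76 and 2.71 in WT titled with and without them (log2 difference 0.29, SE 0.12, limma adjusted p = 0.999). It passed the filter on 1 array, and its WT values lay below it. Rsad2 (viperin), which makes a nucleotide that ends viral RNA chains, had 3.16 and 3.03 in KO and 2.93 and 2.93 in WT. Oasl2, a relative of the synthetases, had 3.62 and 3.56 in KO and 3.44 and 3.47 in WT. For Oas2, Rsad2 and Oasl2 both KO arrays were above both WT arrays, while for Ifit1, given above, they overlapped (difference -0.13).

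Irf7, the factor that amplifies type I interferon production, was measured well above the filter and barely differed. It had 5.79 and 5.62 in KO with and without prebiotics, against 5.61 and 5.57 in WT (difference 0.12, 95% interval -0.22 to 0.45). Ifih1 (MDA5), a sensor of double-stranded RNA, had 7.25 and 7.09 in KO and 7.17 and 7.10 in WT (difference 0.04, 95% interval -0.27 to 0.35). Of the subunits of the response complex, Stat2 had 4.25 and 4.20 in KO and 4.27 and 4.28 in WT, and Irf9 had 4.21 and 3.98 in KO and 4.22 and 3.76 in WT. The KO and WT arrays overlapped for Ifih1 and Irf9.

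Among the GTPases, Gbp4 and Irgm2 had the largest genotype differences, and the others stayed within 0.1. Gbp4, a guanylate-binding protein that coats vacuoles of microbes, had 2.94 and 3.28 in KO with and without prebiotics and 2.78 and 2.79 in WT (difference 0.33, SE 0.15, limma adjusted p = 0.999). Only the KO array without prebiotics was above the filter. Irgm2, which keeps effector GTPases off the cell's own membranes, had 3.61 and 3.68 in KO and 3.36 and 3.35 in WT (difference 0.29, SE 0.13, limma adjusted p = 0.999). Its paralog Igtp, with the nearly identical promoter stretch shown above, had 3.14 and 3.16 in KO and 3.23 and 2.94 in WT, and its arrays overlapped. Irgm1, Iigp1, Gbp3, Gbp6 and Gbp7 also overlapped between genotypes. Iigp1, an effector GTPase that breaks up vacuoles of parasites, had 2.98 and 3.02 in KO and 2.94 and 3.22 in WT, and Gbp6 had 2.47 and 2.70 in KO and 2.55 and 2.79 in WT, below the filter throughout.

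Of the regulators and antigen-processing genes, Irf8 was higher and Psmb8 lower in KO without overlap. Irf8, a factor of macrophages, dendritic cells and B cells, had 5.42 and 5.19 in KO with and without prebiotics and 5.11 and 5.07 in WT (difference 0.22, SE 0.15, limma adjusted p = 0.999). Irf8 alone of the members had 2 probe sets. With their mean, its difference was 0.14 and its KO and WT arrays overlapped. Markers of the cell types of Irf8 did not go 1 way. The medians of the 8 macrophage markers were 4.42 and 4.38 in KO and 4.32 and 3.76 in WT. For 5 of the 8, both KO arrays were above both WT arrays (16.2% of all genes tested). They were below for 3 of 6 measured B cell markers (14% of all genes tested), with medians of 2.79 and 3.34 in KO and 3.44 and 3.47 in WT. The other 3 of each list overlapped, and limma called 0 of the 14 at an adjusted p under 0.05, as it called 0% of all genes tested. In limma at an unadjusted p under 0.05 there were 3 macrophage and 2 B cell markers, beside 3.29% of all genes tested. Of these, Cd163 passed the filter on the KO arrays only, where it is high (3.17 and 3.45, against 2.86 and 2.87 in WT). Without the WT array titled without prebiotics, the difference of Mrc1 was 0.33 in place of 0.99 and that of C1qb 0.34 in place of 0.74. Without the WT array titled with them, these differences were 1.647 and 1.135. Among the B cell markers, the differences of Cd79a and Cd79b leaned on the KO prebiotic array. Without it, that of Cd79a was -0.37 in place of -1.05, and that of Cd79b, which overlapped, 0.24 in place of -0.36. Without the other KO array they were -1.73 and -0.96. Cd22, which did not overlap, had 3.10 and 3.27 in KO with and without prebiotics. In WT titled with and without them it had 3.57 and 3.80. Of 4 measured markers of conventional dendritic cells, 0 were above the filter on all 4 arrays. Of 5 measured markers of plasmacytoid dendritic cells, both KO arrays were above both WT arrays for 0 and below for 2. Over all 22180 genes these counts were 3322 and 3545. The part of these cells in the Irf8 values was not tested.

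Psmb8, a catalytic subunit of the immunoproteasome, had 3.18 and 3.17 in KO and 3.63 and 3.25 in WT (difference -0.27, SE 0.16, limma adjusted p = 0.999), and the highest value was that of the WT array titled with prebiotics. Its partner subunit Psmb9 had 3.20 and 3.22 in KO and 3.22 and 3.21 in WT. Tap1, which carries peptides into the endoplasmic reticulum and shares its promoter stretch with Psmb9, had 3.92 and 3.92 in KO and 4.01 and 3.98 in WT. Irf1, a factor induced early by interferon gamma, had 4.73 and 4.70 in KO and 4.77 and 4.76 in WT. For Psmb9, Tap1 and Irf1 the 4 values lay within 0.1 of each other.

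The second question was whether prebiotics, which gut bacteria ferment, moved the interferon programme. In KO caecum 0 of the 31 members, those below the filter included, were 2-fold higher or lower with prebiotics, beside 0.614% of the 12216 genes that passed the filter in that pair. In the WT pair by title the count was also 0, beside 0.515% of the 12223 genes that passed it there. Over both genotypes, with WT by title, limma called 0 of 26 tested members, beside 1.25% of all genes tested, and at an unadjusted p under 0.05 there was 1 member, Irf9, beside 13.8%. The 95% intervals of the 26 tested members lay between -0.49 (Gbp4) and 0.66 (Irf9), so no interval reached 2-fold. Each pair is 1 array against 1 array and has no test.

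**Figure D3:**
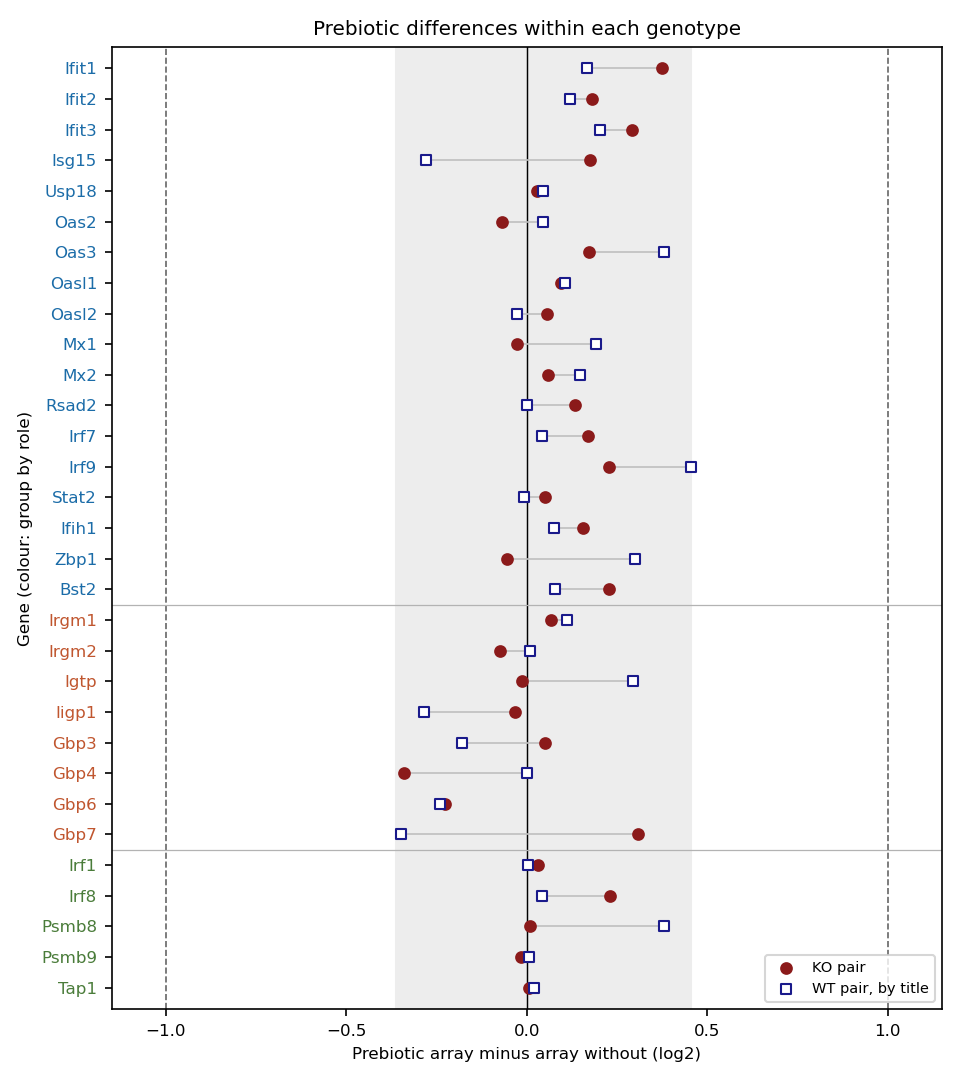
Prebiotic difference of each interferon response gene (x axis, array with prebiotics minus array without, log2) in the KO pair (circles) and the WT pair by title (squares); dashed lines mark 2-fold and the grey band spans the 5th to 95th percentile of all genes tested in the KO pair (-0.36 to 0.45). All 31 genes stay well inside the dashed lines, and most type I genes lie to the right of 0 in both pairs.

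The type I genes on the list of members leaned upwards by small amounts. In the KO pair 15 of 18 measured type I genes were higher with prebiotics, and in the WT pair by title also 15 of 18, beside 50.8% of all 22180 genes in each pair. In 12 of the 18 the difference was above 0 in both pairs and in 0 below 0 in both, beside 29% and 27.3% of all genes, and the other 6 had opposite signs, beside 43.3%. Their median difference was 0.14 in the KO pair and 0.09 in the WT pair, where the median over all genes tested was 0.03 and 0.02. If the WT arrays are read by their descriptions the WT signs turn, the median of the WT pair becomes -0.09, and those 12 genes have opposite signs in the pairs. A list of 42 other measured interferon induced genes, taken up below, showed less of this lean. Of these, 25 were higher with prebiotics in KO and 21 in WT by title, with medians of 0.06 and 0.005. By title, 14 of the 42 were above 0 in both pairs and 9 below 0 in both.

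The 3 Ifit genes on the list of members were among those that leaned upwards. Ifit1 was higher with prebiotics by 0.37 in KO and 0.17 in WT, Ifit2 by 0.18 and 0.12, and Ifit3 by 0.29 and 0.20. Ifit3, which stabilises Ifit1 on RNA in human cells, had 3.06 against 2.77 in the KO pair and 2.99 against 2.78 in the WT pair. These 3 genes lie close together on chromosome 19, and their values cross the filter or lie below it.

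Irf9 and Oas3 had the largest prebiotic differences in WT among the type I genes. Irf9 had 4.21 with and 3.98 without prebiotics in KO, and 4.22 with and 3.76 without in WT by title (effect over both genotypes 0.34, 95% interval 0.03 to 0.66, limma adjusted p = 0.325). In each pair the prebiotic array was the higher one, and the 2 prebiotic arrays were above the 2 others. With the WT pair exchanged the effect of Irf9 was -0.11, so its direction rests on the titles. Oas3, the largest of the oligoadenylate synthetases, had 3.02 against 2.85 in KO and 3.25 against 2.87 in WT. Zbp1, a sensor of nucleic acids in the Z form that can trigger necroptosis, had 3.24 against 3.29 in KO and 3.48 against 3.18 in WT, opposite signs. Bst2 (tetherin), which holds budding viruses on the cell surface, had 3.36 against 3.13 in KO and 3.19 against 3.11 in WT.

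The GTPases did not lean the same way as the type I genes. Of 8 measured GTPases 3 were higher with prebiotics in KO and 3 in WT by title, with medians of -0.02 and -0.09. By title, 1 of the 8 was above 0 in both pairs (Irgm1, at 0.07 and 0.11), beside 29% of all genes, and 3 were below 0 in both (Iigp1, Gbp4 and Gbp6), beside 27.3%. The WT difference of Gbp4 was -7e-04, which is next to none. With the WT pair exchanged, Gbp3 and Gbp7 are above 0 in both pairs and Irgm2 and Igtp below 0 in both, while the other 4 have opposite signs. Gbp7 had 3.76 with and 3.45 without prebiotics in KO, and 3.41 with and 3.76 without in WT by title. The pairs went opposite ways. Whether the 2 groups of genes differ was not tested.

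Of the 5 regulators and antigen-processing genes, Irf1, Psmb9 and Tap1 hardly differed with prebiotics, while Psmb8 and Irf8 differed in 1 pair each. The medians of the 5 were 0.01 in the KO pair and 0.02 in the WT pair by title. Irf1 differed by 0.03 and 0.00, Psmb9 by -0.02 and 0.01, and Tap1 by 0.01 and 0.02. Psmb8, with the values given above, differed by 0.01 in KO and 0.38 in WT, which turns to the opposite sign if the WT pair is exchanged. Irf8 differed by 0.23 in KO and 0.04 in WT. The Irf8 value was highest on the KO prebiotic array, the array on which all 6 B cell markers were lower than on the KO array without prebiotics.

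The rest of the pathway was read from lists of other genes with known roles. Among the ligands 10 of 15 measured genes were below the filter on all 4 arrays, Ifng and Ifnb1 among them (both named after their values were seen). Ifna1 had 3.35 with and 3.01 without prebiotics in KO, and 3.90 with and 2.89 without in WT by title, and was the only ligand at 2-fold in a pair. Ifnl2, a lambda interferon, had 4.20 against 4.42 in KO and 4.99 against 4.18 in WT by title, opposite signs. Interferon genes are families of close copies, so the copy behind a signal is uncertain. In limma 0 of the 5 ligands tested were called for genotype or prebiotics.

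All 13 measured receptor and signalling genes passed the filter, and 0 were called for genotype or prebiotics. The largest prebiotic difference in KO was that of Ifnlr1, the receptor chain specific to lambda interferons, with 3.65 against 3.30 in KO and 3.61 against 3.41 in WT by title. Socs3, an inhibitor of Jak signalling, had 3.27 against 3.55 in KO and 3.28 against 3.22 in WT. Of 13 measured sensors of nucleic acids and their adaptors 11 passed the filter and 0 were called. The endosomal DNA sensor Tlr9 had 3.11 against 3.66 in the KO pair, Tlr3 had 7.57 against 7.15 and the adaptor Sting1 3.72 against 4.13, and in the WT pair by title they differed by 0.27, -0.09 and -0.01.

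Among 42 other interferon induced genes 30 passed the filter, and 1 of them rose with prebiotics over both genotypes, beside 0.994% of all genes tested, while 0 fell. It was Oas1g, an oligoadenylate synthetase gene, with 5.07 with and 4.25 without prebiotics in KO, and 4.51 with and 3.66 without in WT by title. The effect was 0.84 (SE 0.13, 95% interval 0.53 to 1.14, limma adjusted p = 0.0215), and in each pair the prebiotic array was the higher one by 0.83 and 0.85. With the WT arrays exchanged, as their descriptions have them, the effect was -0.01 and not called, and without the trend in the variance model the adjusted p was 0.0623. The Oas1 genes are a family of related copies, and Oas1a itself shares a probe set with Oas1g, so the copy behind this signal is uncertain. Among the other copies, Oas1b, Oas1d, Oas1e and Oas1f were below the filter on all 4 arrays. Oas1c differed by -0.19 in KO and -0.31 in WT by title. The KO and WT arrays overlapped for Oas1g, and it was not called for genotype (difference 0.57, SE 0.34, limma adjusted p = 0.999).

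**Figure D4:**
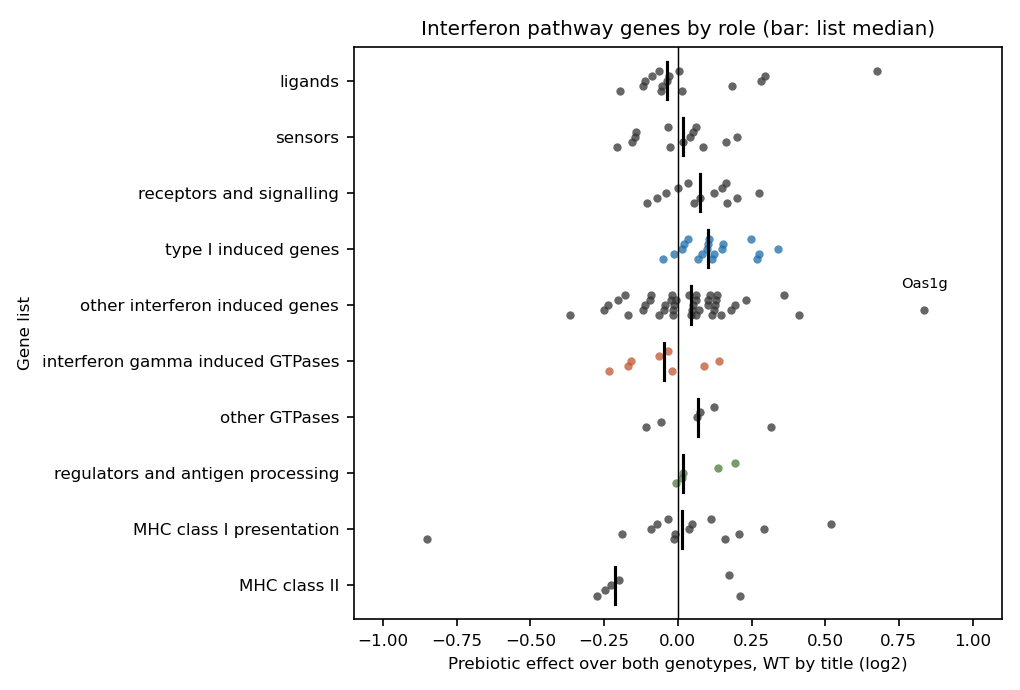
Prebiotic effect over both genotypes (x axis, log2, WT by title) of each measured gene in the lists of interferon ligands, sensors, receptors, targets and antigen presentation (y axis), with a bar at each list's median. Most genes lie within 0.4 of 0, and Oas1g at 0.84 stands to the right of the other targets; H2-Q10, at -0.85 in the class I list, stands as far to the left.

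The next largest differences in that list were those of Apol9a, Trim21 and Tor3a. Apol9a had 3.57 against 3.45 in KO and 3.90 against 3.20 in WT by title. Trim21, a ubiquitin ligase that binds antibodies in the cytosol, had 3.21 against 3.73 in KO and 3.50 against 3.45 in WT. Tor3a had 3.82 against 3.32 in KO and 3.61 against 3.85 in WT. Of these, Apol9a differed in the same direction in both pairs, and Trim21 and Tor3a in opposite ones.

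Among 6 other measured GTPases 3 passed the filter and 0 were called in either comparison. The largest difference was that of Gbp10, with 3.49 against 3.01 in KO and 3.20 against 3.05 in WT by title. Of 14 measured genes of MHC class I presentation 13 passed and 0 were called. The largest difference was that of H2-Q10, a class I heavy chain gene, with 3.74 against 4.92 in KO, 2-fold lower with prebiotics, and 4.42 against 4.94 in WT by title (effect -0.85, SE 0.17, limma adjusted p = 0.0535). It was called with cyclic loess, at -0.88, and its effect was -0.39 as the mean of its 2 probe sets and -0.33 with the WT pair exchanged, neither called. Class I genes have close copies, so the copy behind this signal is uncertain. Tapbp (tapasin), which loads peptides onto class I molecules, had 5.52 against 5.31 in KO and 5.87 against 5.04 in WT by title, and H2-K1, a class I heavy chain, had 8.97 against 8.57 in KO and 8.81 against 8.62 in WT. Psme2, a subunit of the proteasome activator, had 3.75 against 3.60 in KO and 3.34 against 3.86 in WT, opposite signs. The list's median prebiotic effect was 0.01.

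Of 6 measured MHC class II genes 0 were called. In the KO pair 5 of the 6 were lower with prebiotics, with a median of -0.40 over the list, beside 0.03 over all genes tested, while the median of the WT pair by title was 0.05. The chains H2-Aa, H2-Ab1 and H2-Eb1 present peptides to CD4 T cells. H2-Aa had 6.26 against 6.76 in KO and 6.53 against 6.52 in WT by title. H2-Ab1 had 8.05 against 8.54 in KO and 8.31 against 8.22 in WT. H2-Eb1 had 5.003 against 5.51 in KO and 5.53 against 5.58 in WT. For each of these chains the KO array with prebiotics had the lowest value of the 4 arrays. B cells carry class II, and the median difference of the 6 B cell markers was -0.54 in the KO pair and -0.03 in the WT pair by title; their part in these values was not tested. Ciita, the class II activator and an interferon gamma target, had 3.17 against 3.19 in KO and 3.57 against 3.13 in WT.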

How the data were processed

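Expression was measured in caecal tissue on 4 Affymetrix arrays. The deposited values are log2 RMA values, made by the authors with Affymetrix Expression Console per the submitters' processing notes; the log base is taken from RMA and a version is not given in the sources used here. The number of arrays limits the precision.

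Of 41345 probe sets, 23521 had 1 gene symbol, 1814 several and 16010 none in the platform annotation. A gene was tested if, on 1 or more of the arrays compared, it reached that array's median over single-symbol probe sets, which left 13083 genes over 4 arrays. Genotype (2 residual degrees of freedom) and prebiotics with genotype as a term (1 residual degree of freedom) were fitted over all of them in limma 3.58.1 under R 4.3.3 with a variance trend, two-sided, with Benjamini-Hochberg adjustment over all genes and checks on simulated data. Medians use all measured members. The spread behind the genotype p-values is that between the 2 pools of each genotype, which differ in diet. A prebiotic difference thus widens the genotype intervals. The spread behind the prebiotic p-values is how far the difference in the KO pair departs from that in the WT pair. Neither is a spread between mice or between replicate pools of a group. Members and lists were chosen with earlier results of these data known. Every member is accounted for, with array values for the largest differences of each group and up to 4 genes of the other lists; further genes were chosen after their values were seen. List symbols absent from the annotation were matched through RefSeq synonyms.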

Additional observations from a re-analysis of the deposited data

Results flagged for a closer look

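For 11 of the 31 members the prebiotic difference had opposite signs in KO and in WT by title, and this was not tested, since each pair is 1 array against 1 array. Over all 22180 genes 43.3% had opposite signs. The KO difference minus the WT difference was 0.66 for Gbp7, 0.45 for Isg15, 0.23 for Gbp3, 0.0838 for Oasl2 and 0.0595 for Stat2. It was -0.35 for Zbp1, -0.31 for Igtp, -0.22 for Mx1, -0.11 for Oas2, -0.0832 for Irgm2 and -0.0202 for Psmb9. With the WT arrays exchanged these genes would have the same sign in both pairs.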

How the results depend on the processing

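The count of members called (0 for genotype, 0 for prebiotics) or at 2-fold (0 in each pair) was also 0 under every alternative run: means over probe sets, cyclic loess, no filter, a filter at the 75th percentile, no variance trend, diet as a block (also with the WT pair exchanged), the WT pair exchanged and, for genotype, each array left out. Over all genes the prebiotic calls numbered 164, but 85 without a filter, 25 without the trend and 0 with the WT pair exchanged; the genotype calls numbered 0, but 12 with diet by title as a block (0 with that block and the WT pair exchanged), 6 without the KO array kept without prebiotics and 4 without the WT array titled with them. The prebiotic effect of Oas1g was -0.012 with the WT pair exchanged, and 0.837 but not called without the trend.

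Medians moved by small amounts. With cyclic loess they were -0.079 (genotype) for the regulators and antigen-processing genes, -0.079 (prebiotics) and -0.057 (KO pair) for the GTPases, and -0.011 (prebiotics) and -0.036 (KO pair) for the regulators and antigen-processing genes. With the WT pair exchanged they were -0.007 for both of these groups over both genotypes, and in the WT pair -0.092 for type I genes, 0.09 for GTPases and -0.021 for the others. Leaving out an array gave genotype medians between -0.034 and 0.123 for type I genes, between -0.019 and 0.105 for GTPases and between -0.069 and -0.038 for the others, and prebiotic medians between 0.092 and 0.145, between -0.09 and -0.024 and between 0.009 and 0.021. The cause of these moves was not tested. Prebiotic fits with an array left out have no residual degrees of freedom and give no calls. The filters do not enter the medians. The genotype separation of 12 members was 11 with means over probe sets, where Irf8 overlapped, and 12 with cyclic loess, runs chosen after seeing the data. The labels number no replicates, so the block fitted was diet and no replicate block could be made.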
